A study of Mus musculus with 3 samples.

Results

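The tetraspanin family is described here through 10 genes of B-lineage cells: Cd9, Cd37, Cd53, Cd63, Cd81, Cd82, Cd151, Tspan3, Tspan13 and Tspan32. They were chosen by name, as the rows whose Entrez identifier carries 1 of these mouse symbols, and all 10 were found among the 26286 genes of the table. RNA-seq was run on 3 libraries of sorted bone marrow pre-B cells, which form a single group. The mice carried the transgenes CAG-rtTA3 and TRE-GFP-shLuc.1309, that is a broadly expressed doxycycline-responsive transactivator and an inducible control hairpin linked to GFP, and received doxycycline for 3 days. The sort gate was GFP+, B220+, IgM-, Kit- and CD25+, which selects for cells that express the hairpin, and all 3 libraries carry it. Strain, age and sex are not given in the labels, nor whether the libraries are from separate animals. The spread between these libraries, and every p-value built on it, may therefore be technical in part.

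Tetraspanins are multi-pass membrane proteins with a small and a large extracellular loop. They bind one another and carry a set of partners, among them integrins, immunoglobulin-superfamily receptors and proteases, and so gather these in patches of the membrane or guide them to the surface. In B cells the family is best known for CD81, which associates with receptors at the surface, and for CD37 and CD53, which are largely limited to leukocytes. CD25-positive, IgM-negative pre-B cells are the stage at which light chain genes are rearranged.

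The libraries held 12418054, 12021576 and 32086649 counts in replicates 1, 2 and 3. Levels are given as RPKM, the counts scaled to gene length and to the library's total, so that genes of different length can be compared. All 8 genes used as markers of the sorted cells stood above 1 RPKM in every library, from Il2ra, the CD25 gene (89.3 ± 17.7 RPKM, SD, n = 3), to Cd79b (1297 ± 62.2 RPKM) and Ighm (6749 ± 498 RPKM), against 0.791 ± 0.327 RPKM for Kit, the gate's negative marker. Genes listed as markers of other cells had counts too. All 7 neutrophil markers reached 1 RPKM in every library and summed to 1241, 1498 and 2215 RPKM in replicates 1, 2 and 3, with S100a9 (774 ± 250.2 RPKM) and S100a8 (546 ± 180 RPKM) the highest. Of the 5 basophil and mast cell markers only Prss34 did so, with Mcpt8 next in level, and the list summed to 3.38, 7.06 and 23.5 RPKM. Of the 6 platelet and megakaryocyte markers only Itgb3 did, at 7.99 ± 1.58 RPKM, with Itga2b next at 0.338 ± 0.163 RPKM, while the platelet-defining Pf4 had 2, 0 and 0 counts and Ppbp 0, 0 and 1. The lists of monocyte markers (led by Lyz2 and Itgam) and of plasma cell markers (Xbp1 and Sdc1) held 4 of 5 and 2 of 4 members at 1 RPKM or more in every library. Those of T and NK cells (Klrb1c and Ncr1), of mature B cells (Cd1d1 and Cr2) and of stroma and endothelium (Pecam1 and Cdh5) held 1 of 6, 1 of 3 and 2 of 5. The lowest genes of these lists were the monocyte marker Adgre1 (0.365 ± 0.107 RPKM) and the plasma cell marker Tnfrsf17 (1, 1 and 2 counts). In the last 3 lists they were Gata3 (1, 1 and 3 counts), Fcer2a (6, 5 and 11) and Cxcl12 (2, 0 and 2). Whether such cells were in the sort was not tested.

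The promoters of the 3 highest members and of the lowest are shown first, because the levels below run from the first to the last of these genes. Each line holds the 250 bases before the RefSeq start on GRCm38.p6, 5′ to 3′ on the gene's strand. Capitals mark matches on either strand to the octamer ATGCAAAT, to the PU box letters GAGGAA and to the ETS letters CCGGAA. The last 2 both contain GGAA. The octamer and the ETS letters are background knowledge of B-cell promoters, and the motifs were chosen with these sequences in view. The Cd37 window is chr7:45238840-45239089 on the minus strand, Tspan13 is chr12:36042479-36042728 on the minus strand, Cd53 is chr3:106790150-106790399 on the minus strand and Cd63 is chr10:128909095-128909344 on the plus strand.
Cd37: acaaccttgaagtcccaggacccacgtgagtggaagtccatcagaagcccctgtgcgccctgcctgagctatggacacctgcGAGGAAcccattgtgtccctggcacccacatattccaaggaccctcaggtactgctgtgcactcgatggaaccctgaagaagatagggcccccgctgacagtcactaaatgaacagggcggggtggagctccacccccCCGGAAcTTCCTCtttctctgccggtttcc
Tspan13: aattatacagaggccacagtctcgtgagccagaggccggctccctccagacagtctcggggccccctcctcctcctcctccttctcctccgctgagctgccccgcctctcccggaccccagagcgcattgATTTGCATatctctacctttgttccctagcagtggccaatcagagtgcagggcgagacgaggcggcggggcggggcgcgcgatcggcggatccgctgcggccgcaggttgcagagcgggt
Cd53: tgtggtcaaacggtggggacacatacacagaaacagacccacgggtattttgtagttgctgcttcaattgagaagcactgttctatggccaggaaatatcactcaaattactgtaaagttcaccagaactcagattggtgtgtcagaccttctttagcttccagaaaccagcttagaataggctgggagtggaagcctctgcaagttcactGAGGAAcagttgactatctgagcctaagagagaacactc
Cd63: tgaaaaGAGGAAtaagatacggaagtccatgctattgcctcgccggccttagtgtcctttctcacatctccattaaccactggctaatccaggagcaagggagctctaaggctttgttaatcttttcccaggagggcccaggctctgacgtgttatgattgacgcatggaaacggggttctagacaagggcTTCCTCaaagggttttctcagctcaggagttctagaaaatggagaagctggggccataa

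The Tspan13 window held the octamer, which began 120 bases before the start, and it was the only 1 of the 14 windows listed for the 10 genes to do so. Over all 32851 windows of the same length, 1.6% held it. In the Cd37 window the ETS letters and a PU box, which began 30 and 23 bases before the start, were separated by a single base. Of the 14 windows, 4 belong to Cd82 and 2 to Cd151, so these shares are not shares of genes. PU box letters were found in 5 of the 14 windows, 1 each from Cd37, Cd53, Cd63, Cd82 and Tspan32, against 23.25% of all windows. The ETS letters were found in 3 of 14, from Cd9, Cd37 and Tspan32, against 12.03% of all. TATAAA was in none of the 14 and in 12.37% of all windows, CCAAT in 4 of 14 and 33.85% of all, GGGCGG in 7 of 14 and 32.74%, and CANNTG, the E box, in 10 of 14 and 66.22%. These are matches of letters, and no binding was measured. Base composition differed widely among the members: the CG dinucleotide occurred 21 times in the Tspan13 window, 16 times in those of Cd9 and Cd81, 8 times in that of Cd37, 2 times in that of Cd53 and once in that of Tspan32, with a median of 6 over all windows.

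The 10 genes covered a wide range of levels, with Cd37 at the top and Cd63 at the bottom. Cd37 reached 478 ± 31.2 RPKM (SD, n = 3) and Cd63 0.676 ± 0.191 RPKM, a ratio of 707. A level of 1 RPKM or more in each of the libraries was found for 9 of the 10, all but Cd63, against 42.4% of all genes in the table. The median of the 10 mean levels was 21.3 RPKM, and that of all 17423 genes with a count 5.46 RPKM. The 10 levels summed to 823, 862 and 779 RPKM in replicates 1, 2 and 3. Cd37 alone made up 58.2 ± 1.02% of that sum, Tspan13 14.1 ± 0.96% and Cd53 12.1 ± 0.43%, so that the first 3 genes held 84.4% of it.

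**Figure D1:**
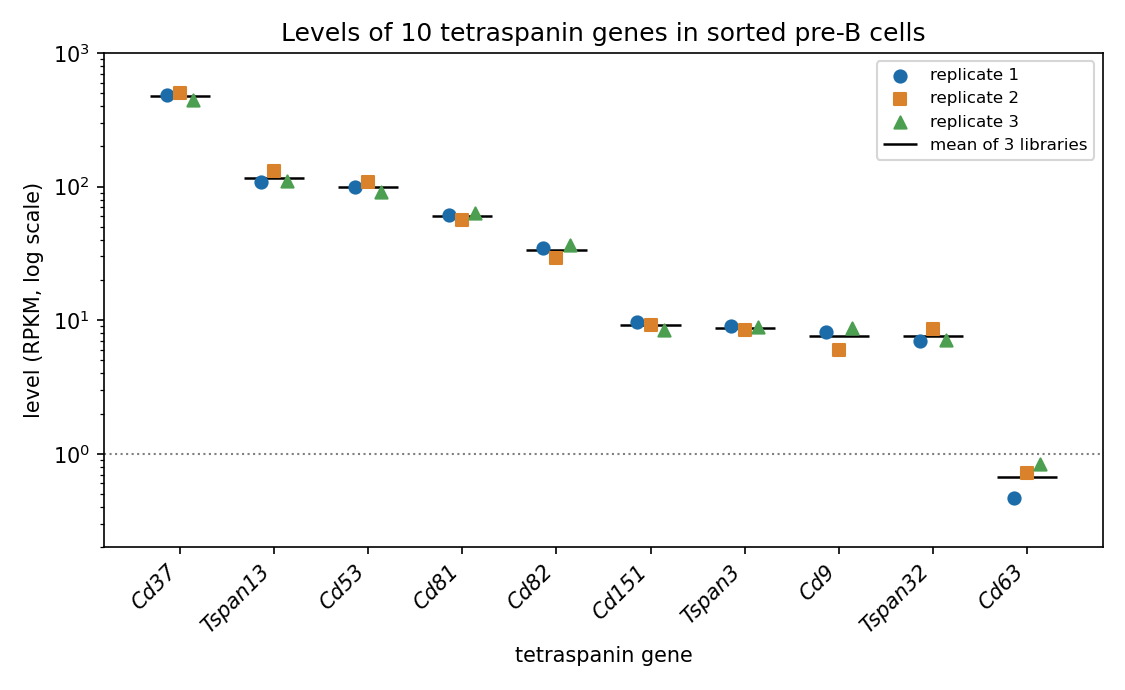
Level of each of the 10 tetraspanin genes in the 3 libraries, in RPKM on a log axis, with the mean as a bar and a dotted line at 1 RPKM. Cd37 stands alone near 478 RPKM, 5 genes from Tspan13 to Cd151 descend to 9.14 RPKM, 4 genes from Cd151 to Tspan32 lie close together, and Cd63 is below 1 RPKM in every library.

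Among the leukocyte tetraspanins, Cd37 (Entrez 12493), a membrane protein of B cells that associates with signalling and adhesion receptors, had 485, 506 and 444 RPKM in replicates 1, 2 and 3. Replicate 2 was the highest and replicate 3 the lowest, 1.14-fold apart. The gene stood above 99.5% of all genes with a count.

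Cd53 (Entrez 12508), a pan-leukocyte tetraspanin known to support interleukin-7 receptor signalling in early B cells, had 99.1, 108 and 91.0 RPKM. The same order of libraries as for Cd37 was seen, with replicate 2 highest and replicate 3 lowest. Its partner in lymphocytes, the phosphatase CD45 (Ptprc), was at 107 ± 9.09 RPKM and the kinase gene Prkcb at 117 ± 10.8 RPKM. Tspan32 (Entrez 27027), a blood-cell tetraspanin studied mainly in T cells and platelets, was far lower, at 7.01, 8.63 and 7.06 RPKM. Replicate 2 was again the highest, but replicates 1 and 3 were alike, and an exact 95% Poisson interval of the count (135 to 186 for 159 counts in replicate 1, 163 to 218 for 189 in replicate 2) leaves the libraries overlapping.

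Tspan13 (Entrez 66109), whose protein is known to bind a voltage-gated calcium channel, had the next highest level after Cd37. It stood at 108, 130.1 and 109.6 RPKM, with replicate 2 above the other two libraries, which nearly coincided. Its 2589, 2997 and 6781 counts make the counting error small. Set side by side within each library, Tspan13 exceeded Cd53 by 0.22 ± 0.08 on the log2(RPKM + 0.5) scale and in all 3 libraries. This order depends on gene length: scaled to library size alone (CPM), Cd53 exceeded Tspan13, with a difference of -0.32 on the log2(CPM + 0.5) scale.

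Cd81 (Entrez 12520), a widely expressed tetraspanin that associates with B-cell surface receptors, had 61.4, 56.2 and 63.5 RPKM, highest in replicate 3 and lowest in replicate 2. Of the genes listed as its partners, Cr2, the CD21 gene of mature B cells, had 16, 27 and 32 counts and 0.244 ± 0.106 RPKM. The interferon-inducible membrane proteins that associate with CD81 had 7.86 ± 1.16 RPKM for Ifitm3, 4.78 ± 1.45 RPKM for Ifitm2 and 1.48 ± 0.71 RPKM for Ifitm1. The Ifitm genes are close copies, so the split of reads among them is uncertain.

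Of the genes listed as immunoglobulin-superfamily partners of tetraspanins, Igsf8 was measured at 30.3, 23.3 and 33.5 RPKM in replicates 1, 2 and 3. Its library order was that of Cd81, but also that of some genes listed as partners of other members, such as Sdcbp and Hgs, and of the library totals. Ptgfrn had 1, 0 and 5 counts and Igsf3 0.257 ± 0.068 RPKM, so that Igsf8 was the only 1 of these 3 genes at 1 RPKM or more in every library.

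Cd82 (Entrez 12521), which restrains cell movement and binds integrins and growth factor receptors, had 34.8, 29.0 and 36.4 RPKM. Cd9 (Entrez 12527), a tetraspanin that marks marginal zone B cells and plasma cells in the mature compartment and is abundant on platelets, had 8.17, 5.95 and 8.79 RPKM. Both genes shared the library order of Cd81, lowest in replicate 2 and highest in replicate 3. Cd9 varied more than any other member but Cd63, with a coefficient of variation of 19.5%, and its 121, 85 and 337 counts were fewer than those of all members but Cd63.

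Cd151 (Entrez 12476), the partner of laminin-binding integrins, had 9.76, 9.17 and 8.495 RPKM, and Tspan3 (Entrez 56434), a widely expressed member, had 9.13, 8.398 and 8.86 RPKM. Neither gene showed a library that stood apart. The laminin-binding chain genes were Itga6 at 12.3 ± 1.46 RPKM and Itga3 at 0.440 ± 0.160 RPKM, with their common beta chain Itgb1 at 17.3 ± 0.73 RPKM. Of the other integrin chains fixed as partners, Itga4 was at 53.3 ± 12.3 RPKM, Itgb2 at 36.8 ± 0.98 RPKM, Itgal at 8.73 ± 1.88 RPKM and Itgb7 at 1.999 ± 0.517 RPKM.

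Cd63 (Entrez 12512), the tetraspanin of late endosomes and exosomes, had 6, 9 and 28 counts, or 0.466, 0.724 and 0.839 RPKM. The exact 95% Poisson intervals of these counts were 2.20 to 13.1, 4.12 to 17.1 and 18.6 to 40.5, and scaled to library size they overlap, so no order of the libraries can be read from them. The processed pseudogene Cd63-ps shares 519 of the 3869 distinct words of 31 bases in the annotated Cd63 transcripts, which include long unspliced forms, while the gene length in the table is 1037 bases. The sources used here do not state how reads matching both were handled, so the Cd63 level is uncertain. The neutrophil, basophil and monocyte marker sums were lowest in replicate 1 and highest in replicate 3, as was the sum of the listed CD81 partners. Within the neutrophil list, Mpo (4.58, 2.82 and 4.15 RPKM) and Elane (3.24, 2.45 and 2.74 RPKM) were highest in replicate 1, and the rest followed the sum. The part of those cells in the Cd63 counts was not tested. Genes that sort cargo to exosomes beside CD63 were well expressed: Sdcbp stood at 76.8 ± 3.75 RPKM, Pdcd6ip at 40.1 ± 1.33 RPKM, Hgs at 29.2 ± 2.30 RPKM and Tsg101 at 20.4 ± 1.48 RPKM.

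Other members share fewer words with other genes, apart from Cd9, where 20.1% of 2011 words also occur elsewhere and 188 of them in the antisense gene Gm26728. Cd37, Cd53 and Cd82 shared none, and Tspan13 shared 0.243%. Exons of Cd9, Cd81, Cd151 and Tspan32 overlap those of a noncoding gene on the opposite strand, over 218, 104, 193 and 271 bases, and those of Cd37 overlap Tead2 over 13 bases. The sources used here do not state whether counting used strand, so reads from both strands cannot be told apart there.

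The order of the levels held at its top in every library. Members next to each other in the order were compared within each library on the log2(RPKM + 0.5) scale, in 9 pairs. In 6 pairs the ranges over the 3 libraries did not overlap: Cd37 above Tspan13 (2.04 ± 0.10), Tspan13 above Cd53 (0.22 ± 0.08), Cd53 above Cd81 (0.71 ± 0.21), Cd81 above Cd82 (0.85 ± 0.08), Cd82 above Cd151 (1.81 ± 0.21) and Tspan32 above Cd63 (2.78 ± 0.25). The last value depends on the pseudocount, since Cd63 is so low: it was 3.33 with 0.1 and 2.35 with 1 in place of 0.5. The exact two-sided sign-flip permutation test gave p = 0.25 for each, the smallest that 3 libraries allow, and 0.321 after Benjamini-Hochberg adjustment over the 9 pairs, so no pair could pass 0.05.

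Cd151, Tspan3, Cd9 and Tspan32 could not be ordered. Cd151 exceeded Tspan3 by 0.05 ± 0.10, Tspan3 exceeded Cd9 by 0.21 ± 0.23 and Cd9 differed from Tspan32 by 0.00119 ± 0.438, with overlapping ranges in each pair. The difference of Cd9 and Tspan32 was -0.50 in replicate 2 and 0.30 at its highest, and it turned to -0.10 without replicate 1 and -0.15 without replicate 3.

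The spread of each member over the libraries was then set against counting noise. Of the 10 genes, 9 passed the filter on low counts and were tested, and Cd63 was not. Counts of 6 of the 9 differed between libraries by more than Poisson noise, against 54.6% of all 12147 genes tested, so the share of members is close to that of all genes. The 6 were Cd37, Tspan13, Cd53, Cd82, Cd81 and Cd9, with adjusted p = 2.03e-21, 1.02e-14, 2.4e-16, 1.37e-05, 0.00694 and 0.0121 (chi-square test, Benjamini-Hochberg over all genes). Tspan32 (0.0875), Cd151 (0.246) and Tspan3 (0.770) did not pass. Among the 6, the highest library exceeded the lowest by 1.13-fold for Cd81 and by 1.48-fold for Cd9, the least and the most.

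**Figure D2:**
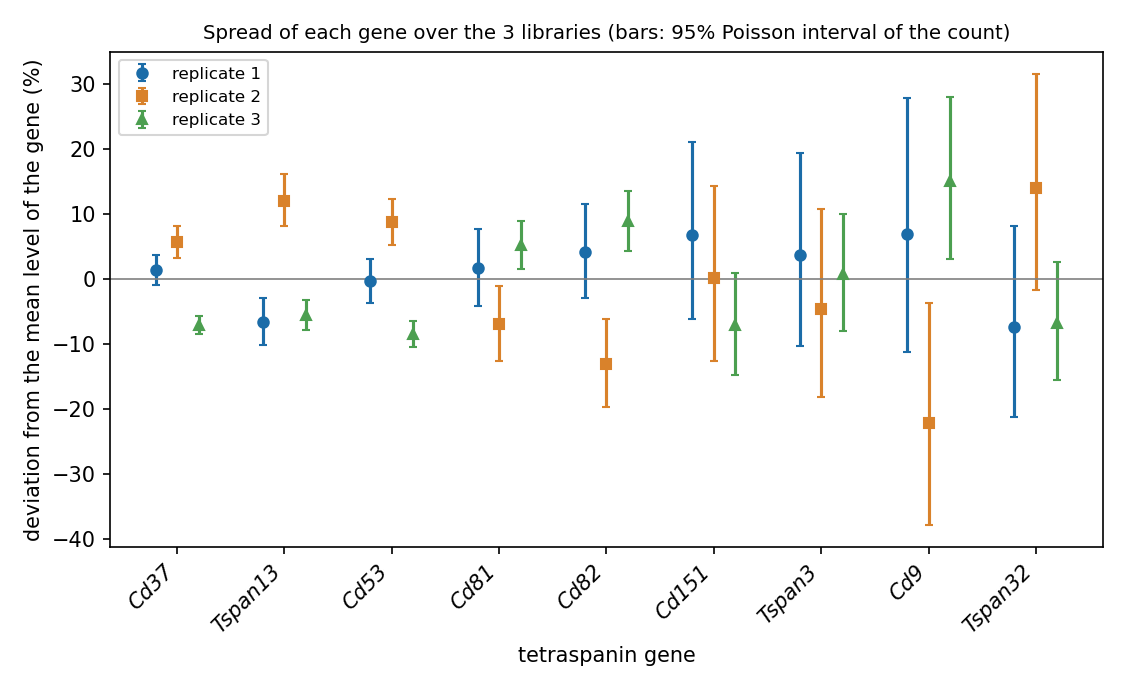
Deviation of each library from the mean level of the gene, in percent, for the 9 tested members, with 95% Poisson intervals of the counts as bars. Replicate 2 is the highest library for Cd37, Tspan13 and Cd53 and the lowest for Cd81, Cd82 and Cd9.

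The libraries did not rank alike for these 6 genes. Cd37, Tspan13 and Cd53, the 3 highest genes, were highest in replicate 2, and the lowest library was replicate 3 for Cd37 and Cd53 and replicate 1 for Tspan13. Cd81, Cd82 and Cd9 were lowest in replicate 2 and highest in replicate 3. Relative to Cd37, on the log2(RPKM + 0.5) scale, Cd82 stood at -3.78, -4.10 and -3.59 in replicates 1, 2 and 3, and Cd81 at -2.97, -3.16 and -2.80. Sums of 2 lists that were added last, with earlier results known, are given beside this. The 6 mitosis genes, among them Mki67 and Top2a, summed to 1021, 809 and 1169 RPKM. The 6 immediate early genes, among them Jun and Fos, summed to 205, 165 and 338 RPKM. Both sums had the library order of Cd81, Cd82 and Cd9. The sums of the exosome sorting, immunoglobulin-superfamily partner and plasma cell lists had that order too, as had the library totals, while the other lists did not. The integrin, signalling partner, platelet, T and NK cell and stroma sums, and Adam10, had the library order of Cd37 and Cd53. The part of cycling cells, of early gene induction or of admixed cells in the differences of the 6 tetraspanin genes was not tested. In bulk samples fewer cells of a type and less RNA per cell cannot be told apart. Without replicate 2 the calls for Tspan13, Cd81, Cd82 and Cd9 were lost (adjusted p = 0.764, 0.4897, 0.449 and 0.654), and Cd37 and Cd53 were the 2 that passed. Without replicate 3 those for Cd81 and Cd9 were lost (0.1196 and 0.0838).

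No member passed a test of its variability against genes of like abundance. In an intercept-only quasi-likelihood fit with edgeR, 0 of the 9 tested members passed, at an adjusted p of 0.996 for each, against 0.0165% of all genes, and 0 passed at an unadjusted p under 0.05, against 5.3% of all. The ratio of the gene's dispersion to that of the trend ran from 0.0926 for Tspan3 to 2.05 for Cd82. The median coefficient of variation was 9.54% for the 10 members and 9.76% for all genes tested. The members here include Cd63 (28.3%), which did not pass the filter, so these medians are of unlike sets.

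The labels give 1 difference between the libraries, the version of the base-calling software CASAVA, which was 1.8.0 for replicate 3 and 1.8.2 for replicates 1 and 2. It cannot be told apart from the greater depth of replicate 3 or from anything else particular to that library. None of the 9 tested members differed in edgeR's quasi-likelihood test, with 0 at an adjusted and 0 at an unadjusted p under 0.05, against 0.0741% and 9.62% of all genes, and DESeq2 called 0 of them too. Cd9 had the greatest difference, 0.31 ± 0.26 (log2, SE; 95% interval -0.29 to 0.92; adjusted p = 0.755 in edgeR). It was 0.57 without replicate 1 and 0.10 without replicate 2, where the difference of Cd151 (-0.20) was the largest in size. Cd53 had the lowest adjusted p, 0.699, at -0.19 ± 0.13 (interval -0.49 to 0.12). The intervals of the other members also included 0, so that changes smaller than these intervals could not be detected. The median difference was -0.12 for the 9 members and -0.00702 for all genes tested.

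**Figure D3:**
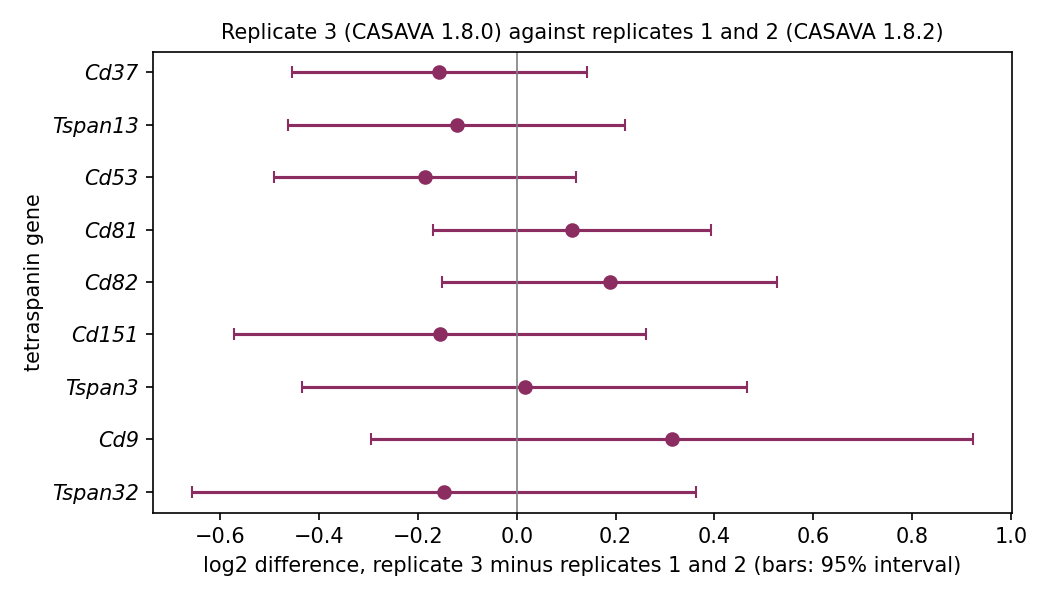
Log2 difference of replicate 3 from replicates 1 and 2 for the 9 tested members, as points with 95% intervals from edgeR's quasi-likelihood fit. All 9 intervals include 0, and the widest is that of Cd9, from -0.29 to 0.92.

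The rest of the family was measured with a list of 23 other mouse tetraspanin symbols, of which 21 matched a row. Of these, 7 reached 1 RPKM in every library, against 42.4% of all genes in the table. The median mean level of the 21 was 0.119 RPKM, against 21.3 RPKM for the 10 members, which were chosen as genes of B-lineage cells. Only Tspan14 stood at the height of the leading members, at 114.6, 89.2 and 96.1 RPKM in replicates 1, 2 and 3. Its difference from Cd53 was 0.00405 ± 0.251 on the log2(RPKM + 0.5) scale and changed sign between libraries. Replicate 1 was its highest library, unlike any of the 3 leading members. Of the 8 tested genes of this list, only Tspan14 had counts that differed by more than Poisson noise (chi-square test, adjusted p = 1.09e-23), against 54.6% of all genes tested. It also had the most counts of the list, 3526, 2647 and 7656, against 460, 504 and 1194 for Tspan2, the next in level. The part of count depth in this call was not tested.

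Tspan14 belongs to the TspanC8 group, whose members bind the protease ADAM10 and bring it to the cell surface. Adam10 itself stood at 153 ± 19.2 RPKM. The other TspanC8 genes were far lower, with Tspan5 at 3.96 ± 0.16 RPKM, Tspan17 at 1.45 ± 0.33 RPKM, Tspan33 at 0.334 ± 0.124 RPKM, and Tspan15 at 0, 1 and 1 counts. Tspan10 was without counts, and the limit set by 3 counts in the smallest library was 0.121 RPKM. Tspan14 exceeded Tspan5 by 4.49 ± 0.17 on the log2(RPKM + 0.5) scale, 22.4-fold, in every library.

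The remaining genes at 1 RPKM or more were Tspan2 (9.13 ± 0.68 RPKM), Tspan31 (4.90 ± 0.42 RPKM), Tspan6 (3.61 ± 0.15 RPKM) and Rom1 (2.30 ± 0.53 RPKM), a structural tetraspanin of photoreceptor discs. Tspan2 lay at the height of Cd151 and Tspan3. Tspan8, Tspan10, Tspan11, Tspan12, Upk1b and Prph2 had no counts in any library. The last 2 are tetraspanins of the urothelium and of photoreceptors, and their limits were 0.1415 and 0.0951 RPKM.

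**Figure D4:**
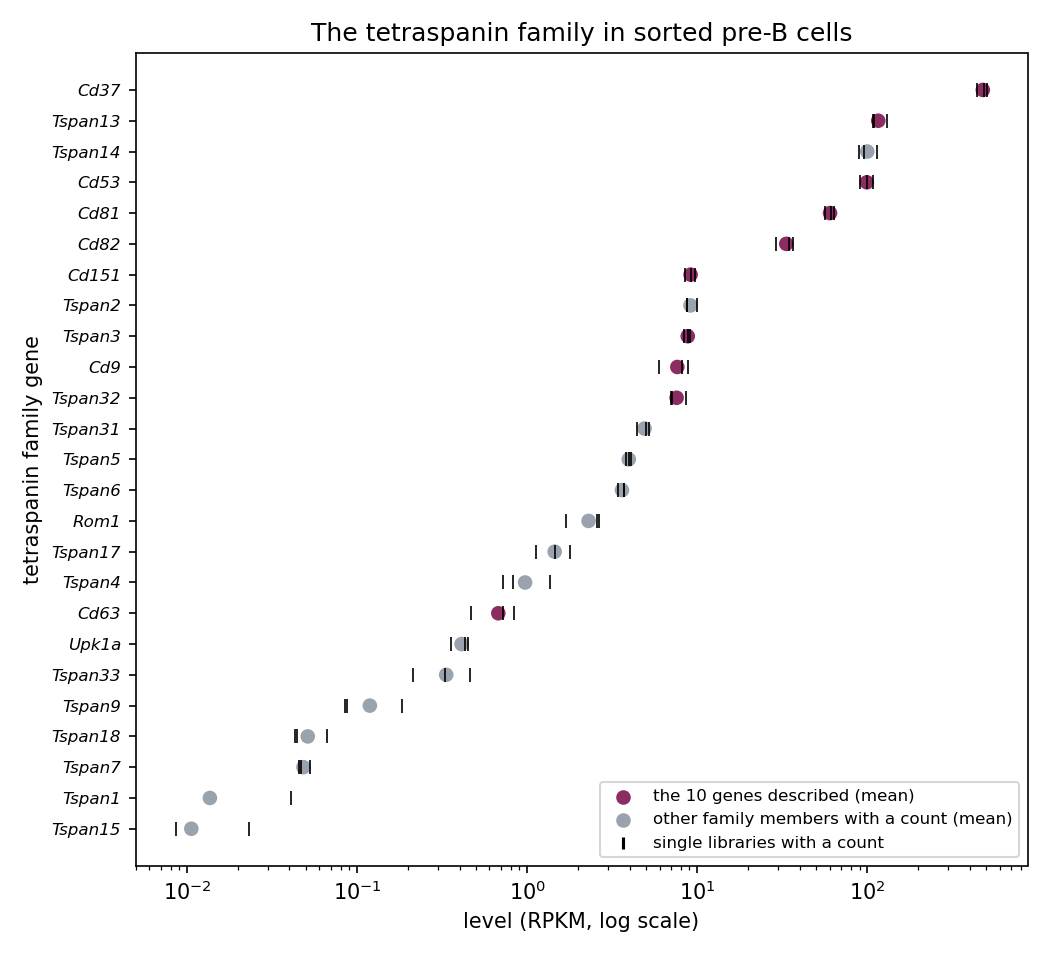
Mean level of every tetraspanin gene with a count, in RPKM on a log axis, with single libraries as ticks; the 10 genes described are purple and other family members grey. Tspan14 is the single grey point among the leading purple ones, beside Cd53, and Cd63 lies among the low grey points.

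The genes that signal with CD37 ranged widely in level. The phosphatase Ptpn6, which is known to act downstream of CD37, was at 96.8 ± 8.15 RPKM and the kinase subunit Pik3cd at 108 ± 1.86 RPKM. By contrast Il6st, the interleukin-6 receptor chain of a pathway that CD37 restrains, was at 4.87 ± 0.62 RPKM, Clec7a, a fungal receptor that CD37 stabilises, at 1.38 ± 0.27 RPKM and Socs3 at 0.632 ± 0.441 RPKM. Socs3 had 20, 7 and 96 counts, with replicate 3 the highest and replicate 2 the lowest. Zdhhc2, an enzyme that attaches palmitate to CD9 and CD151, stood at 0.295 ± 0.037 RPKM, from 9, 10 and 21 counts.

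**Figure D5:**
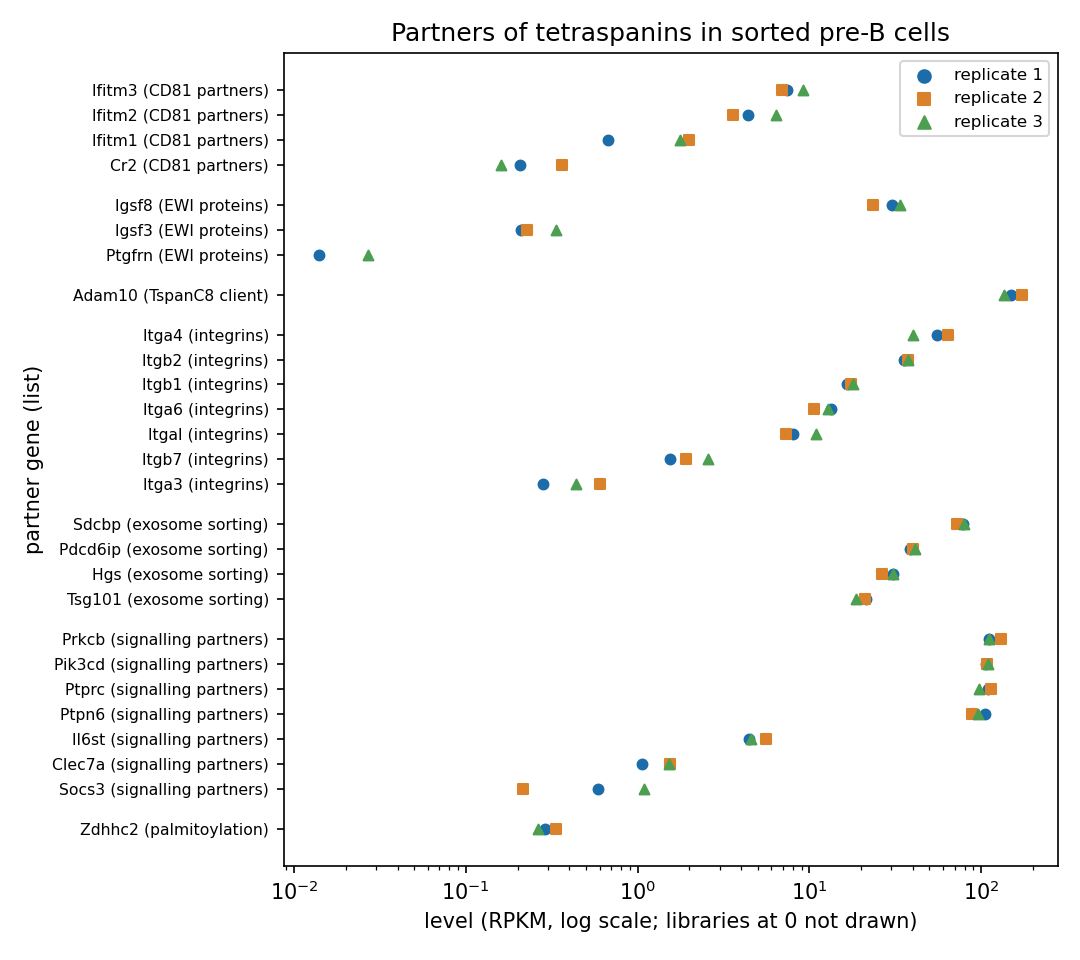
Level of the partner genes in the 3 libraries, in RPKM on a log axis, grouped by list; libraries at 0 are not drawn. Adam10 leads at 153 RPKM, and Ptgfrn, Cr2, Igsf3, Itga3, Socs3 and Zdhhc2 have mean levels below 1 RPKM.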

How the data were processed

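RNA of sorted pre-B cells was sequenced in 3 libraries. Reads were summarised per gene with featureCounts on mm9, after base calling with CASAVA, per the submitters' processing notes; for the aligner, annotation, strand setting and treatment of multiply mapped reads the sources used here name nothing. The deposited values are raw counts per Entrez gene with a gene length, and the table equals the 3 sample files. Symbols came from the RefSeq table of GRCm38.p6 by Entrez identifier (24176 of 26286 matched), and promoter sequences from RefSeq on that build; protein sequences were not used here. Words of 31 bases and exon overlaps were counted in GENCODE transcripts of GRCm38.

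The software was edgeR 4.0.16 (with limma 3.58.1) and, as an alternative, DESeq2 1.42.0, both under R 4.3.3. RPKM used TMM-scaled totals (factors 1.0003, 0.9969 and 1.003). The tests kept 12147 genes (filterByExpr, minimum count 10, minimum total 15), and p-values were Benjamini-Hochberg adjusted with a threshold of 0.05. Tests were tried on simulated data, and how many planted changes they recovered is not reported here. Intervals and floors cover counting error only. With 3 libraries no correlation across samples was computed and no gene was chosen for likeness of pattern. The members, the lists and the tests were chosen with earlier results of these data known; the mitosis and immediate early lists were added last. By rule the text could name all members, their nearest neighbour genes, any partner gene, the highest 2 genes of each marker list and its defining genes at 0, and tetraspanins at 1 RPKM or without counts. Outside it, Il2ra, Kit, genes of the lists added last, platelet markers with few counts and TspanC8 genes below 1 RPKM were named after their values were seen. So were Mpo, Elane and the lowest genes of other marker lists. The gene on the partner and the sorted-cell list that is left out is not reported here. Plots came from Python 3.11.15 and its matplotlib 3.10.9.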

Additional observations from a re-analysis of the deposited data

How the results depend on the processing

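No paired analysis was possible because the 3 libraries form a single group. The summed level of the 10 members was 821 RPKM and 1946 TPM, which is a change of unit, and 802 to 841 RPKM leaving out each replicate. The number of members at the minimum level stayed at 9 under every alternative run except TPM, which gave 10. Leaving out each replicate, the Poisson test called 3145 to 5590 genes and 2 to 6 members. The variability test called 2 genes, 46 with all genes with a count, 0 in a robust fit (604 at an unadjusted p under 0.05) and 2 to 44 leaving out each replicate, and 0 members each time. The CASAVA comparison called 9 genes, 36 with DESeq2, 23 without scaling, and 0 with all genes with a count (1200 at an unadjusted p under 0.05) or with replicate 3 thinned to the smallest total (1104), and 0 members each time. The causes of these differences were not tested. In that comparison Cd9 was 0.566 and 0.105 without replicate 1 and without replicate 2, and Tspan3 turned to -0.054 with thinning. Without replicate 1 and without replicate 2, its difference was 0.082 and -0.042, that of Tspan13 -0.243 and 0.016 and that of Tspan32 -0.286 and 0.011. A pseudocount of 0.1 or 1 moved Tspan32 minus Cd63 to 3.33 or 2.35, with the other 8 neighbour differences within 1 SD of their value. On the CPM scale, without gene length, that difference was 3.58. There the difference of Tspan13 from Cd53 was -0.32 and that of Cd9 from Tspan32 -0.59. Cd37 minus Tspan13 fell to 1.40 and Cd53 minus Cd81 rose to 1.60. Only Cd82 minus Cd151 stayed within 1 SD of its RPKM value on that scale. Cd9 minus Tspan32 was also negative without replicate 1 (-0.10) and without replicate 3 (-0.15), and 0.253 without replicate 2. Cd63 entered the tests under some alternatives, where its adjusted p ran from 0.330 to 0.787 against Poisson noise, from 0.9751 to 0.999 for variability and was 0.771 in the CASAVA comparison. Depth limits Cd63 most, with 6 counts in replicate 1.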

Other observations

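Cd81 and Tspan32 are neighbours among the protein-coding genes of chromosome 7 in the GRCm38.p6 annotation. By order of their starts, a single other gene lies between them. Their levels were far apart: Cd81 exceeded Tspan32 by 2.92 ± 0.25 on the log2(RPKM + 0.5) scale, 7.57-fold, in every library. The noncoding R74862, whose exons overlap those of Cd81 over 104 bases on the opposite strand, had 11, 13 and 38 counts. Tssc4, on the other side of Cd81, stood at 21.7 ± 1.11 RPKM, and Ascl2, on the other side of Tspan32, had 0, 1 and 1 counts. Of the other high members, Cd37 lies between Tead2 (4.89 ± 1.02 RPKM) and Slc6a16 (0, 0 and 1 counts). Cd53 lies between Lrif1 (14.7 ± 2.001 RPKM) and the olfactory receptor gene Olfr266, which had no counts. Tspan13 lies between Agr2, which had no counts, and Bzw2 (25.2 ± 2.16 RPKM). How often genes of this level have neighbours with few counts was not tested.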
